A study of Mus musculus with 2 samples.

Results

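A divergent promoter is a stretch of DNA from which a pair of genes starts in opposite directions, one on each strand. The peaks described here are sites of open chromatin at such promoters in mouse spleen. The method was DNase-seq, in which DNase I cuts the DNA of isolated nuclei where it is accessible and the cut ends are read by sequencing. A divergent pair was taken as 2 protein-coding genes on opposite strands that point away from each other, with starts at most 1000 bases apart in any annotated transcript. A member was a peak within 1000 bases of both starts that overlapped a peak of the other library by at least 1 base. By this rule, replicate 1 had 1569 members among its 48286 peaks, and replicate 2 had 1574 among 28837. They made up 6.12% and 6.13% of the 25633 and 25693 peaks called in both libraries, and 10.3% and 10.4% of those within 1000 bases of a protein-coding start.

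The study held 1 group, whole spleen of male mice aged 14 days of the strain B6CASTF1/J, an F1 hybrid with no treatment named in the labels. It had 2 biological replicates with 1 library each. The labels describe replicate 1 as tissue of 3 males and replicate 2 as tissue of 1 male, under a shared donor entry. Whole tissue mixes cell types, so fewer cells with an open site and less cutting per cell cannot be told apart. As a check of the tissue, a peak called in both libraries lay within 1000 bases of a start at 5 of 5 B cell markers, 5 of 5 red cell markers and 2 of 3 T cell markers (not at Cd3e). It lay there at 1 of 3 spleen stroma markers (Madcam1, not Tlx1 or Nkx2-5) and at 0 of 6 markers of other organs. In the longer lists used below, 22 of 25 erythroid, 12 of 19 B cell and 4 of 22 T cell genes outside divergent pairs had such a peak. With 1 group and 2 libraries no test between conditions exists, and the comparisons below are descriptions of these libraries. Values are given for replicate 1 and then replicate 2, or as mean ± SD over both.

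Mammalian genomes hold many head-to-head gene pairs, and their shared promoters are often rich in CpG and active in most tissues. The pairs are known for housekeeping functions such as DNA repair, mitochondrial protein synthesis and protein folding, and the histone genes H2A and H2B are a classical example of a divergent pair that is used together. Factors often found at such promoters include ETS proteins such as GABP, NRF1, YY1 and the CCAAT-binding factor NF-Y.

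The strongest peaks of 8 pairs are shown as sequence, chosen to span DNA repair, purine synthesis, protein folding, protein turnover and histones besides the strongest pairs. Each run is 300 bases of the mm10 reference centred on the strongest member of replicate 1, read 5′ to 3′ on the plus strand. The reference is the C57BL/6J genome, so the runs hold only that allele of the hybrid. In each pair name the minus-strand gene comes first. Capitals mark matches to the searched motifs, which in these runs were the GC box (GGGCGG), the CCAAT box (CCAAT), the ETS site (CCGGAAG), the TATA box (TATAAA) and the E-box (CACGTG), on either strand.

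Sugct/Mplkip (chr13:17694851-17695150, plus strand): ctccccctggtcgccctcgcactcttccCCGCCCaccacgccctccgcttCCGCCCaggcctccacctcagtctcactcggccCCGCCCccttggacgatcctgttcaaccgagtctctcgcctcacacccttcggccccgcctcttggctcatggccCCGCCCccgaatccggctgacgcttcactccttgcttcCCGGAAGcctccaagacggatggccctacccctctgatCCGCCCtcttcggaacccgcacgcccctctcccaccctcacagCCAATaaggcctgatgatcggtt

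Pdhx/Apip (chr2:103073461-103073760, plus strand): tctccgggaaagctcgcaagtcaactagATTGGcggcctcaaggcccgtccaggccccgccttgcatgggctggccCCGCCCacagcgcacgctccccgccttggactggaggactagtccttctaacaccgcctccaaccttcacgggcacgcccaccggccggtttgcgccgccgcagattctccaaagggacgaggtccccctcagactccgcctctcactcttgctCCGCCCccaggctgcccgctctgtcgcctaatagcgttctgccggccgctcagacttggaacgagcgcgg

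Desi1/Xrcc6 (chr15:82016181-82016480, plus strand): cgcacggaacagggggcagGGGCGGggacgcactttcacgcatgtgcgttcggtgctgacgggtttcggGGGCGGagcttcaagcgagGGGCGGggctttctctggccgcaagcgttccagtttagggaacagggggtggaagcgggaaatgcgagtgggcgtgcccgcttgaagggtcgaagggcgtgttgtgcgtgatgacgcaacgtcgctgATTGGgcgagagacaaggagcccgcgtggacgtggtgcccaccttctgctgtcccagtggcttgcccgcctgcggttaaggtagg

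Atm/Npat (chr9:53536711-53537010, plus strand): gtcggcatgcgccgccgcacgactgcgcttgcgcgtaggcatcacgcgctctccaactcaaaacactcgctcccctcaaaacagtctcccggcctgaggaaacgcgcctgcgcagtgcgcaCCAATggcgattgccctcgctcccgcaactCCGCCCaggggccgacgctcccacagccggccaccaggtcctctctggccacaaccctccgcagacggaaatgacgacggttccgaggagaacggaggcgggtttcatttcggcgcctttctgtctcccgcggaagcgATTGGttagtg

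Ppat/Paics (chr5:76951141-76951440, plus strand): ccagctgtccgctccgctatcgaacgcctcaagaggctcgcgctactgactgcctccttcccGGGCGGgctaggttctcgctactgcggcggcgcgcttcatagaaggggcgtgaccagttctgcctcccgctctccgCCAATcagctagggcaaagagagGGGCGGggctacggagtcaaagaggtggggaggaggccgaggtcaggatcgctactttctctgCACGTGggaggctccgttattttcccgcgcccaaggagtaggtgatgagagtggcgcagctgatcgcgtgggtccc

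Psmb1/Tbp (chr17:15499711-15500010, plus strand): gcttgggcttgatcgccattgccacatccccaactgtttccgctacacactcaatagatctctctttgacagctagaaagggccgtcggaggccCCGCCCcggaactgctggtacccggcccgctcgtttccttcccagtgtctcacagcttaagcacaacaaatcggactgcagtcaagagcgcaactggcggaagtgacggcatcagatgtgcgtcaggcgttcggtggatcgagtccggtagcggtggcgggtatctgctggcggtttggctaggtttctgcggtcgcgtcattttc

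Hspd1/Hspe1 (chr1:55087971-55088270, plus strand): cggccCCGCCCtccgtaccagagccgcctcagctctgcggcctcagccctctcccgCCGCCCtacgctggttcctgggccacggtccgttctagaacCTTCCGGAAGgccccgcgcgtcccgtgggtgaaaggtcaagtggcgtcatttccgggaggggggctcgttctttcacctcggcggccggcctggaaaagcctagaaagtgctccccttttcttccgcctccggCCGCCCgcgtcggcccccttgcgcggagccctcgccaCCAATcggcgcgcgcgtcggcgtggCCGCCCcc

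Hist1h2bf/Hist1h2ad (chr13:23574211-23574510, plus strand): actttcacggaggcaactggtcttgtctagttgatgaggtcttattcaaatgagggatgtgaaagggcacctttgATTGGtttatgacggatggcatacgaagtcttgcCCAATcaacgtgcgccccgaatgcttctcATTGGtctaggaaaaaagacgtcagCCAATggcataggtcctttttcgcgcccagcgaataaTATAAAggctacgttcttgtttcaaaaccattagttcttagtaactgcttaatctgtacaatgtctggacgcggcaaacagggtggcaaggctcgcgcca

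Sugct, a CoA-transferase gene, and Mplkip start 423 bases apart, and the run lies between their starts, covering neither. It held 5 GC boxes, 1 ETS match and 1 CCAAT box, and 4 GC boxes overlapped a footprint in replicate 1 and 5 in replicate 2. A footprint is a short stretch inside open chromatin that is protected from the enzyme, as it is under a bound protein. In the run of Pdhx, a component of the pyruvate dehydrogenase complex, and Apip, an enzyme of methionine salvage, the starts were at positions 53 and 215. Both of its GC boxes overlapped a footprint in both libraries, and its CCAAT box did so in neither. Desi1 and Xrcc6, which encodes a subunit of the DNA end-binding protein Ku, started at positions 45 and 189 of a run with 3 GC boxes that were footprinted in both libraries. In the run of Atm, the kinase that responds to DNA breaks, and Npat, the activator of histone gene transcription, the GC box and 1 of 2 CCAAT boxes were footprinted in both libraries. The run of Ppat and Paics, both enzymes of purine synthesis, held 2 GC boxes, a CCAAT box and an E-box. Psmb1, a subunit of the proteasome, and Tbp, the TATA-binding protein, had 1 match in the run, a GC box footprinted in both libraries. The run of Hspd1 and Hspe1, the mitochondrial chaperone and its partner, held 2 ETS matches on opposite strands that overlap each other in a palindrome and lay in no footprint. The histone pair Hist1h2bf and Hist1h2ad had 4 CCAAT boxes and no GC box. Its TATA box lay past the annotated plus-strand start and was footprinted in both libraries. These counts are to be read against the shares over all matches. Inside all members, 69.6% and 63.8% of GC boxes overlapped a footprint, against 63.0% and 57.3% inside the other promoter peaks called in both libraries. For TATAAA the shares were 58.5% and 51.3% against 40% and 43.6%.

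The annotation held 1232 divergent pairs of 2410 genes, of 21938 protein-coding genes, and 53 genes were in more than 1 pair. The starts lay a median of 106 bases apart (quartiles 57 and 209). A member was found in both libraries at 1095 pairs, 88.9% of those annotated. In 478 pairs (38.8%) the records of the genes overlap at their 5′ ends, and these qualified through other starts.

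Genes in divergent pairs had a peak more often than other genes. A peak called in both libraries within 1000 bases of a start was found at 91.3% of the 2410 genes in pairs, against 51% of all 21938 protein-coding genes, which is the background share. It was found at 70.2% of 1292 genes whose divergent partner was a long noncoding RNA, and at 44.3% of the 18236 other genes. Genes in pairs also had more CpG, with a median of 7.67 per 100 bases in the 300 bases around the start of the gene record, against 3.67 in the other genes. At equal CpG content the order was the same. Under 2 CpG per 100 bases, 60.6% of 160 genes in pairs and 10.8% of 6611 other genes had a peak. With 8 or more, the shares were 96.3% of 1190 and 79.5% of 5320. Genes in pairs had a median of 5 annotated starts and the other genes 3, and each start adds a chance of a peak. Among genes with 1 start the shares were 77.0% of 248 genes in pairs and 17.9% of 4513 other genes. By the rule, a gene in a pair has its partner's start within 1000 bases, so 1 peak at either promoter can count for both genes. This can raise the share of genes in pairs in every class, and by how much was not tested.

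**Figure D1:**
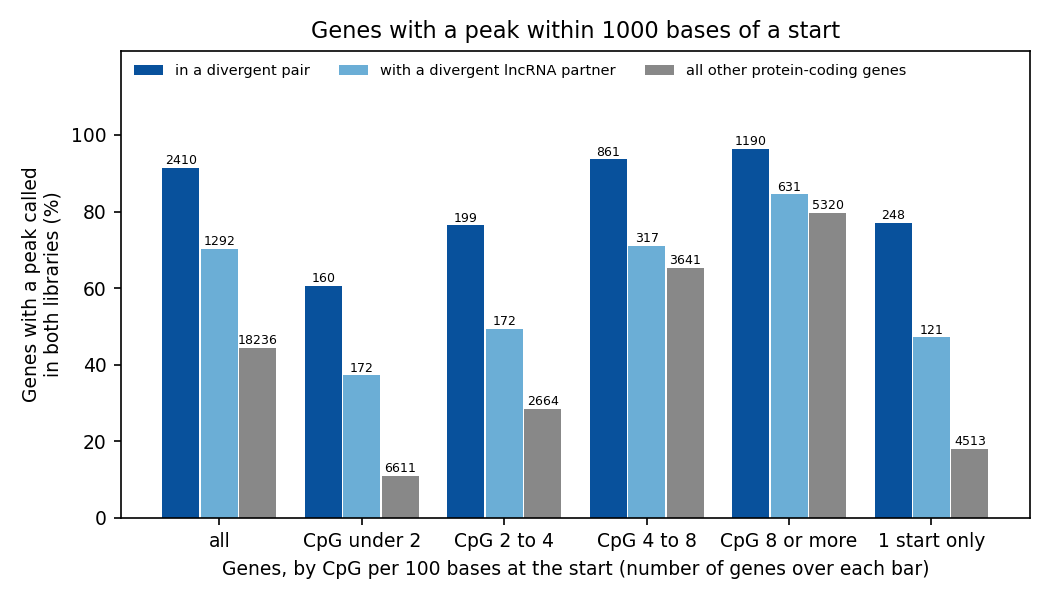
Percent of protein-coding genes with a peak called in both libraries within 1000 bases of a start (vertical axis), for genes in a divergent pair (dark blue), genes with a divergent long noncoding RNA partner (light blue) and all other genes (grey), in all, in 4 classes of CpG per 100 bases at the gene's start, and for genes with 1 start. Numbers over the bars count genes, and genes in pairs are highest in every class, from 60.6% under 2 CpG to 96.3% at 8 or more.

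Divergent promoter peaks were stronger than other promoter peaks. Their median signal was 8.41 in replicate 1 and 4.97 in replicate 2. The other peaks called in both libraries within 1000 bases of a protein-coding start had medians of 4.69 and 2.96, and all peaks called in both libraries 3.11 and 2.03. The log2 ratio of members to other promoter peaks was 0.80 ± 0.07 (SD, n = 2 libraries). Signal is the authors' value for each peak, on an unstated scale. The distributions overlapped widely, with quartiles of 4.15 and 13.97 for members and 2.17 and 9.85 for other promoter peaks in replicate 1. Members were among the strongest 25% of all shared peaks in 58.3% and 55.8% of cases, against 36.5% and 36.0% of the other promoter peaks.

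Members had to be near the starts of 2 genes and other promoter peaks near 1, so the rule itself bears on how many lie over a start. A protein-coding start was inside 81.7% and 82.1% of members and 63.4% and 62.0% of other promoter peaks. Among peaks over a start, the medians were 9.40 and 5.58 for members and 6.32 and 3.94 for the others, a log2 ratio of 0.54 ± 0.05 (SD, n = 2 libraries). The difference in signal had the same direction in each of 4 classes of CpG content, bounded by the quartiles of all shared promoter peaks. In the class with the least CpG the medians were 4.55 and 2.48 against 2.90 and 1.72, and in that with the most 8.49 and 5.60 against 5.01 and 3.24. Other promoter peaks with a divergent long noncoding RNA partner lay in between, at 5.96 and 3.61.

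**Figure D2:**
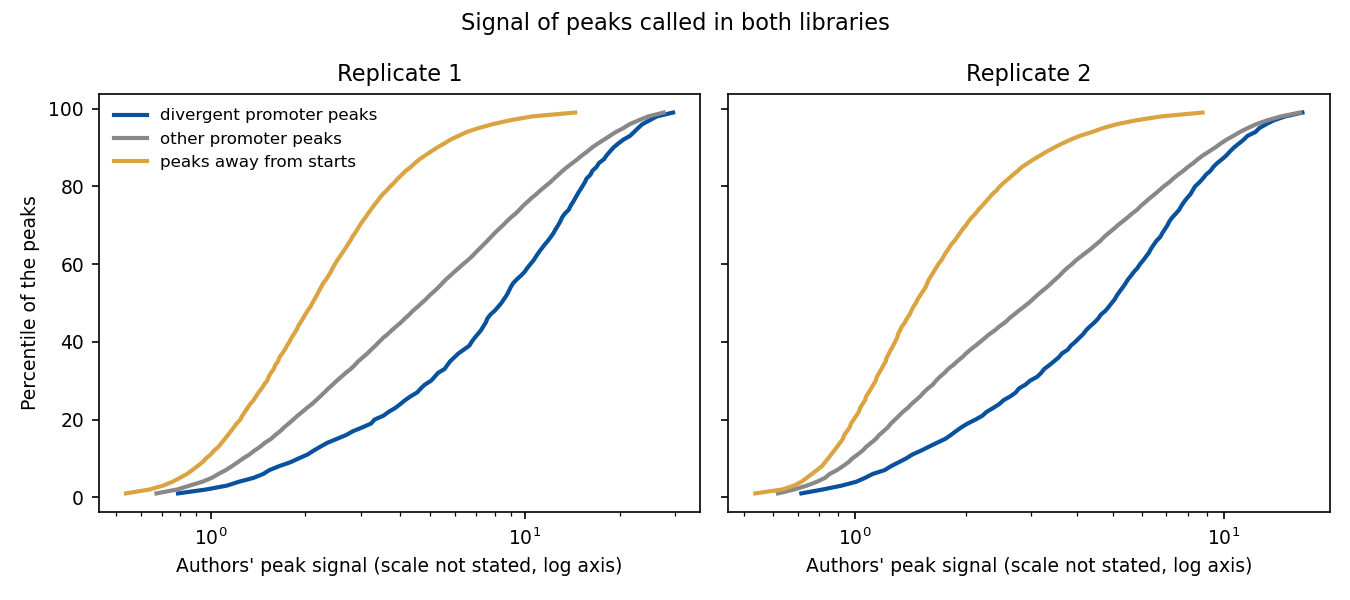
Percentiles (vertical axis) of the authors' peak signal (horizontal axis, log scale, scale not stated) in each library for divergent promoter peaks (blue), other promoter peaks (grey) and peaks away from starts (yellow), all called in both libraries. The blue curve lies to the right of the grey over nearly its whole length, with medians of 8.41 against 4.69 in replicate 1 and 4.97 against 2.96 in replicate 2, and the curves meet at the top.

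The median width of members was 220 bases in both libraries, against 220 and 200 for other promoter peaks. Mean widths were 238.1 bases for both kinds in replicate 1 and 235.0 against 224.2 in replicate 2, so members were wider in replicate 2 alone. Members held 1.73 and 1.65 footprints per 100 bases, and other promoter peaks 1.58 and 1.54. Among peaks over a start these densities were 1.93 and 1.82 against 1.80 and 1.71. The median CpG content in 300 bases centred on the peak was 8.33 per 100 bases for members in both libraries and 8 and 8.33 for other promoter peaks, so peaks already at a promoter differed little in CpG.

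The hypersensitive stretch around a pair reached farther than the peaks. Bases at a false discovery rate (FDR) of 0.001 or less, from the authors' per-base values, covered a median of 994 and 741 of the bases within 1000 bases either side of a pair's midpoint. Around the starts of 8992 genes outside pairs with a shared peak, the medians were 779 and 555 (for each such gene the start closest to its strongest peak was used). These genes include 907 with a divergent long noncoding RNA partner. By the rule the window of a pair holds starts of 2 genes, so the rule itself bears on the difference in extent. The shape also differed. Around genes outside pairs, the stretch from 200 to 400 bases upstream of the start was at this FDR for 51.9% and 34.7% of bases, and the same stretch into the gene for 64.2% and 43.5%. At divergent pairs both sides run into a gene, and they were alike, at 66.5% and 46.7% on the minus-strand side and 66.6% and 46.0% on the plus-strand side.

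Between the starts, the chromatin was open nearly throughout when the starts were close. The share of bases between the starts at FDR 0.001 or less was 97.4% and 94.9% for starts at most 100 bases apart and 98.6% and 94.3% for those over 200 and up to 300 apart. For starts more than 500 bases apart it was 68.6% and 55.8%. In these wide pairs coverage was higher in the 200 bases into either gene, at 76.9% and 62.8% on the minus-strand side and 71.3% and 57.7% on the plus-strand side. Footprints were densest between the starts, with 2.14 and 2.08 per 100 bases where the starts were at most 100 bases apart, against 1.29 and 1.04 in the 200 bases into the minus-strand gene. Over all 1095 pairs the density between the starts was 1.65 and 1.49, and for starts more than 500 bases apart 0.977 and 0.805. Genes outside pairs had 1.56 and 1.39 in the 200 bases upstream of the start, a window of another length than the gaps of pairs. They had 1.02 and 0.826 in the 200 bases into the gene.

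**Figure D3:**
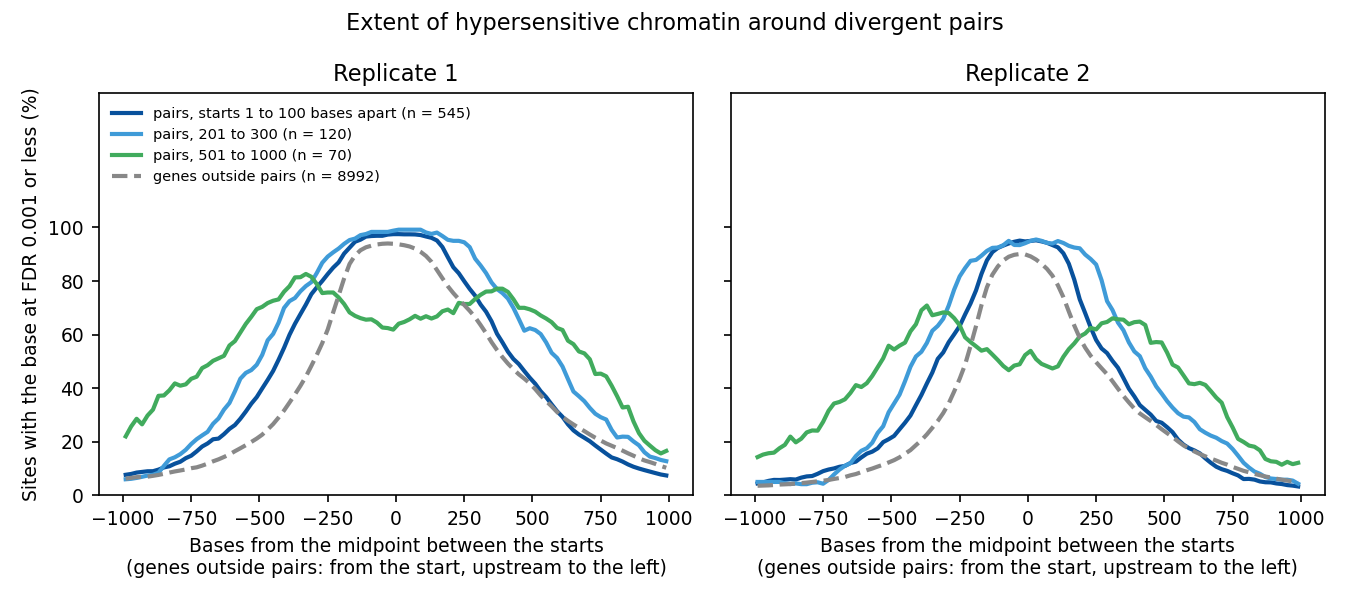
Percent of sites at which a base was at an FDR of 0.001 or less (vertical axis) against distance in bases from the midpoint between the starts (horizontal axis), for pairs with starts at most 100, over 200 and up to 300, and more than 500 bases apart, and for 8992 genes outside pairs, drawn from the start with upstream to the left (dashed grey). The curves of pairs are nearly symmetric, the grey curve falls faster upstream, and the widest pairs have a maximum on each side of a dip at the midpoint.

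Most pairs had 1 member. A single member was found at 61.9% and 61.1% of pairs with any, and the highest number was 5 in each library. More than 1 member was more frequent with distance, at 33.0% and 33.6% of pairs with starts at most 100 bases apart and at 55.7% and 57.1% of those more than 500 apart. Where a pair had more than 1, the centres of the strongest 2 were a median of 480 bases apart in both libraries. At pairs with starts more than 300 bases apart, these 2 peaks were nearer to different starts in 69 of 84 and 67 of 85 pairs.

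The place of the strongest member is given against the closest divergent starts of its pair, and other starts of the genes were not considered. The strongest member covered both starts at 73.8% of pairs in both libraries when the starts were at most 100 bases apart. This share was 53.2% and 51.2% over 100 and up to 200 bases, and 25.8% and 20.8% over 200 and up to 300 bases. At more than 500 bases it was 0%, and the strongest member then covered 1 start at 71.4% and 74.3% of pairs. Over 300 and up to 500 bases, the share that covered both starts was 1.25% in both libraries. The strongest members had median widths of 200 to 240 bases in every distance class. Most of them are thus too narrow to cover starts more than 300 bases apart, and the fall in this share is bounded by peak width. A member was present at 92.2% of the 591 closest pairs and at 69.3% of the pairs more than 500 bases apart, in both libraries. Of the 5 distance classes, the best signal was highest over 300 and up to 500 bases apart, with medians of 14.0 and 7.52, and was 9.82 and 5.92 at the closest pairs.

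**Figure D4:**
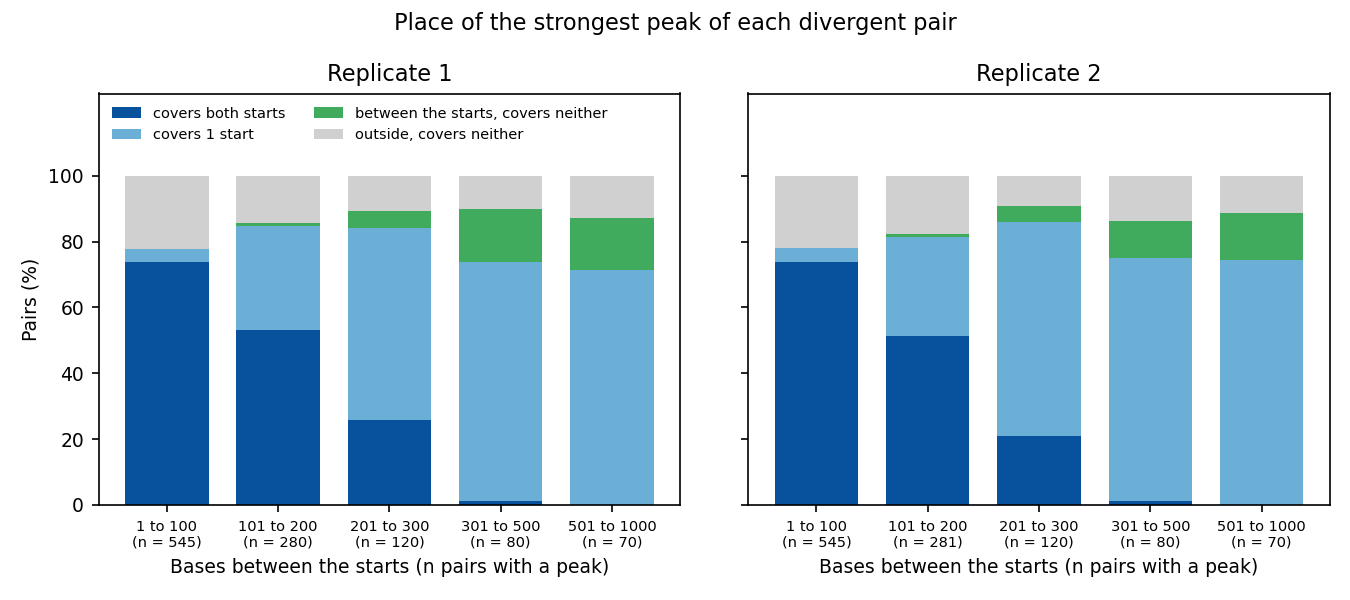
Percent of divergent pairs with a member (vertical axis) by where the strongest member lies, over both starts (dark blue), over 1 start (light blue), between the starts over neither (green) or outside over neither (grey), in 5 classes of distance between the starts (horizontal axis, bases) and each library. The starts are the closest divergent starts of each pair. The share over both starts goes from 73.8% at up to 100 bases to 0% at more than 500 bases, a distance that most peaks are too narrow to span.

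At the limits of the rule, 15 pairs had starts that were within the last 100 bases of the limit of 1000, and 9 of them had a member, with a median best signal of 5.18 and 3.93. Of 9 pairs with starts up to 50 bases beyond the limit, 4 had a peak called in both libraries within reach of both starts, with medians of 5.70 and 4.002. The 12 members of replicate 1 whose farther start was in the last 50 bases of the limit had a median signal of 2.35, and 9 peaks up to 50 bases beyond it had 4.16. In replicate 2 the corresponding medians were 1.76 for 16 members and 1.42 for 9 peaks. Members within 200 bases of both starts numbered 1004 and 998 and had medians of 10.4 and 6.01.

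Motif matches were counted in the 300 bases centred on each peak, on both strands, for 13 motifs. Members lay over a start more often than other promoter peaks, and motif shares were not compared among peaks over a start alone. Members held the ETS site CCGGAAG in 26.1% and 26.0% of cases and other promoter peaks in 16.1% in both libraries, while all shared promoter peaks together had it in 17.1%. Of all motifs searched, this was the one with the widest gap in percentage points. CCAAT had the next widest, in 38.8% and 37.9% of members and 32.5% and 32.3% of other promoter peaks, with 33.2% and 32.9% of all. The YY1 site AAGATGGC was found in 7.84% and 7.88% of members against 4.65% and 4.75%, and in 4.98% and 5.08% of all shared promoter peaks. The NRF1 core CGCATGCG was in 5.16% and 5.02% against 3.46% and 3.42%, with 3.63% and 3.59% of all shared promoter peaks. The ZNF143 sequence ACTACAA was in 5.48% and 5.40% against 3.39% and 3.30%, with 3.61% and 3.52% of all.

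The GC box GGGCGG was in 69.9% and 70.3% of members against 68.1% and 68.3% of other promoter peaks, with 68.3% and 68.5% of all. Its gap of 1.83 percentage points was 6.13 in replicate 1 alone, where no overlap with the other library was asked. The BANP site CTCGCGAG was in 2.55% and 2.48% against 1.72% and 1.71%, with 1.81% and 1.79% of all. Values for the cyclic AMP response element TGACGTCA were 3.82% and 3.81% against 3.07% and 3.05%, with 3.15% and 3.13% of all. The E-box CACGTG was in 10.8% and 10.7% against 10.01% and 9.85%, with 10.1% and 9.93% of all. TATAAA was in 3.89% and 3.81% against 3.59% and 3.49%, with 3.62% and 3.52% of all.

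Motifs of blood cell factors were as rare or rarer in members. The GATA site AGATAAG was in 1.08% and 1.21% of members, 1.76% of other promoter peaks in both libraries, 1.69% and 1.70% of all shared promoter peaks and 3.15% and 3.13% of all shared peaks. The RUNX site TGTGGTTT was in 8 members of each library, 0.510% and 0.508%, against 0.993% and 0.991% of other promoter peaks and 0.943% and 0.941% of all. The PU.1 site GAGGAAGT was in 2.80% of members in both libraries, 2.85% and 2.74% of other promoter peaks and 2.84% and 2.74% of all. No searched motif contains another, though matches of different motifs can overlap at their ends.

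Some of these gaps moved with CpG content and others did not. Within the 25% of promoter peaks with the most CpG, the ETS shares were 27.3% and 28.1% in members against 15.9% and 15.6% in the others. There the YY1 shares were 7.50% and 7.79% against 4.70% and 4.83%, and the NRF1 shares 7.25% and 6.28% against 4.46% and 4.27%. The gap of the E-box was wider in this class than over all members, at 15.5% and 14.6% against 10.3% and 10.1%. The order turned for the GC box, at 83.8% and 83.7% against 88.5% and 88.0%. It also turned for ZNF143, at 1.00% and 1.01% against 1.28% and 1.40%, and for the cyclic AMP response element, at 3.50% and 3.77% against 3.67% and 3.89%, but this class holds 400 and 398 members, so these shares rest on few matches. CCAAT was nearly level, at 24.5% and 22.9% against 22.6% and 22.8%.

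Some matches were nearly always footprinted. Inside members, 79 of 83 NRF1 matches (95.2%) in replicate 1 and 74 of 76 (97.4%) in replicate 2 overlapped a footprint, and 56 of 58 matches of the cyclic AMP response element (96.6%) did so in both. ETS matches were footprinted at 60.9% and 49.5%, and CCAAT at 46.5% and 39.1%. Other promoter peaks had similar shares, at 96.0% and 93.3% for NRF1 and 55.2% and 46.0% for ETS. Members with an NRF1 match had a median signal of 12.7 and 7.44 and those without 8.16 and 4.84. For CCAAT the medians were 11.8 and 6.18 with a match and 6.85 and 4.19 without. The order was the opposite for the E-box, with 7.55 and 4.79 against 8.42 and 4.998, and for TATAAA, with 6.81 and 4.01 against 8.44 and 5.03.

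The 10 pairs with the highest mean of their best signal ran from 40.1 and 23.4 at Sugct/Mplkip to 30.1 and 20.2 at Dcaf6/Mpc2, the latter gene a subunit of the mitochondrial pyruvate carrier. The values of Dcaf6/Mpc2 come from different peaks, and its single sites had 30.1 and 14.1, and 28.9 and 20.2. Pdhx/Apip had 36.9 and 21.3. Dnajb4, a co-chaperone, and Fubp1, a single-strand DNA-binding protein, had 34.9 and 20.5. The pair of Nfya, a subunit of the CCAAT-binding factor NF-Y, and Oard1 had 34.3 and 18.8. Tecr, a reductase of fatty acid elongation, and Dnajb1, a co-chaperone of heat shock proteins, had 35.1 and 16.4. Usp37, a deubiquitinase, and Cnot9, a subunit of a deadenylase complex, had 34.8 and 18.7. Fam53a/Gm9903, Pi4ka/Snap29 and Fbh1/Ankrd16 were the remaining 3, at 33.0 and 21.3, 33.2 and 19.0, and 31.1 and 20.6. All 10 were higher in replicate 1, as were nearly all pairs.

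Well-known head-to-head pairs spread over the whole range. Of 22 such pairs, 20 met the rule and 19 had a member in both libraries. Brca2/Zar1l had its closest divergent starts 4466 bases apart, and Chek1/Stt3a had no divergent starts. Atm/Npat had a best signal of 26.2 and 13.1 and ranked 38 of 1095 pairs. Pdcd10 with Serpini1, which encodes neuroserpin, had 24.5 and 13.1, and Mcm4, a subunit of the replicative helicase, with Prkdc, the DNA-dependent protein kinase, had 23.7 and 11.1. Ppat/Paics had 21.6 and 11.6. At the low end were Surf1, an assembly factor of cytochrome oxidase, with Surf2 (2.53 and 1.73), Tsc2, an inhibitor of growth signalling through mTOR, with Nthl1, a base excision repair glycosylase (2.84 and 1.64), and Tk1, thymidine kinase, with Afmid (3.11 and 2.24).

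A pair of antigen presentation ranked 215 of 1095. Psmb9, a subunit of the immunoproteasome, and Tap1, the peptide transporter of antigen presentation, have their closest divergent starts 38 bases apart and had 16.6 and 10.4. Their 1 member lay 244 bases from that Psmb9 start, on the side of Psmb9, and did not cover either of these closest starts. Other annotated starts of the genes were not checked. Hspd1/Hspe1 had 14.4 and 7.04 and Psmb1/Tbp 14.1 and 7.34. Gart, a purine synthesis gene, with Son, a splicing factor, had starts 554 bases apart and 2 members in each library, the stronger near Son in replicate 1 (15.6) and near Gart in replicate 2 (7.42). Ranbp1/Trmt2a, Hadha/Hadhb (the subunits of an enzyme of fatty acid oxidation), Mrps12/Sars2 (both of mitochondrial translation), Emc8/Cox4i1 and Atp5j/Gabpa (the latter an ETS factor) had best signals between 8.41 and 16.3 in replicate 1 and between 4.65 and 10.5 in replicate 2. Col4a1/Col4a2, the basement membrane collagens, had no peak in any list of either library.

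Signal was higher in replicate 1 at 97.7% of its members, against 94.8% of other promoter peaks and 88.5% of all peaks called in both libraries, the background share. Over the 1095 pairs, the median log2 ratio of the best signal in replicate 1 to that in replicate 2 was 0.78 (quartiles 0.60 and 0.97), and 1091 pairs were higher in replicate 1. These ratios assume a common scale of signal, which no label or header states, and they compare 2 libraries, not conditions. On the log2 scale the best signals had a Pearson correlation of 0.952 across pairs, which share libraries and are not independent.

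Brca1/Nbr1 had the highest ratio, 1.75. Brca1, a DNA repair gene, and Nbr1, an autophagy receptor gene, start 194 bases apart and had 3 members in each library. The peak over the Brca1 start had 8.51 and 4.52, and that over the Nbr1 start 4.78 and 2.00. The strongest lay inside Nbr1, 412 and 392 bases from its start, with 18.7 and 5.55. Next came Tmx2/Med19 and Gm28635/Med19, which share 1 peak (1.64, 11.1 and 3.57), Mmachc/Ccdc163 (1.59, 6.53 and 2.16) and Ranbp10/Tsnaxip1 (1.54, 16.2 and 5.56). At the other end, Rnf123/Mst1 had -0.75, but its best peaks lay at different sites. Its site with a member in both libraries had 2.66 and 1.44. Bola1/Hist2h2ab had -0.20, also from different sites, and its site with a member in both had 3.89 and 2.68. At these sites both pairs were higher in replicate 1. The best replicate 2 site of each pair was also called in both libraries, as the rule asks. It met the distance limit for its pair in replicate 2 alone. At Bola1/Hist2h2ab, the overlapping peak of replicate 1 had 10.96 and was a member of Hist2h2ac/Hist2h2be but not of this pair. Kctd19/Lrrc36 (-0.40), Nrg4/Tmem266 (-0.023) and Exoc2/Gm5447 (0.0045) completed the lowest 5, with signals from 0.697 to 2.92 in replicate 1. Over all pairs with a member, the best peaks of the libraries did not overlap at 31.

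**Figure D5:**
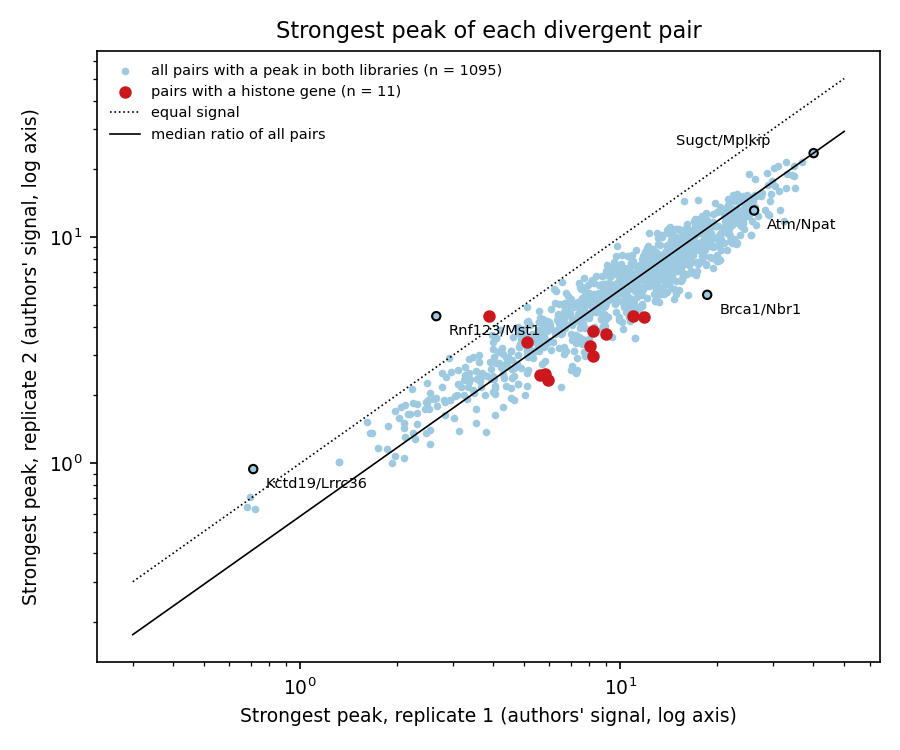
Authors' signal of the strongest peak of each divergent pair in replicate 1 (horizontal axis) and replicate 2 (vertical axis), both log scales, for 1095 pairs (light blue), with the 11 pairs that hold a histone gene in red, the line of equal signal dotted and the median ratio of all pairs solid. Of the histone pairs, 9 have a ratio above the median of 0.78, and the circled pairs are named in the text.

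Of the 15 families counted, genes of DNA repair and replication were most often in divergent pairs, 54 of 133 (40.6%), against 10.99% of all 21938 protein-coding genes. All 55 of their pairs had a member in both libraries, against 88.9% of all pairs. Their median best signals were 14.0 and 7.86, against 11.1 and 6.35 over all pairs. The strongest were Desi1/Xrcc6 (28.8 and 19.1) and Atm/Npat. Some of these pairs share a gene and have the same values, such as Pms1/Ormdl1 and Pms1/Gm28778. CCAAT was in the 300 bases on the best member at 37 of the 55 pairs (67.3%), against 45.0% of all pairs. This was not particular to the family. Chaperone pairs had CCAAT at 16 of 25 (64%), tRNA synthetase pairs at 6 of 9 and nucleotide synthesis pairs at 3 of 5. Respiratory chain pairs (26.3%) and cytosolic ribosome pairs (12.5%) had it less often than all pairs. All 13 motifs were counted in each family, and only some of these shares are given. Of 33 genes of nucleotide synthesis, 6 were in pairs, and all 5 pairs had a member, led by Ppat/Paics.

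Genes of the mitochondrion were often in pairs too. The shares to read them against are the 10.99% of all genes in pairs and the 88.9% of all pairs with a member. Of 78 genes of the mitochondrial ribosome, 29 were in pairs (37.2%), and all 28 pairs had a member, led by Mrpl49/Fau (24.4 and 13.4) and Mrps18b/Ppp1r10 (23.96 and 12.2). Fau encodes a protein of the cytosolic ribosome, so this pair joins both ribosomes. Of 113 genes of the respiratory chain, 38 were in pairs (33.6%), with a member at 38 of 39 pairs, led by Tepsin/Ndufaf8 (25.9 and 14.4) and Rps28/Ndufa7 (23.2 and 12.3), whose starts are 10 bases apart. The YY1 site was at 9 of 38 respiratory chain pairs and 6 of 28 of the mitochondrial ribosome (23.7% and 21.4%), against 9.32% of all pairs. It was also at 2 of 9 tRNA synthetase pairs (22.2%) and 3 of 16 cytosolic ribosome pairs (18.8%), so it was not particular to these families. Pairs of DNA repair and replication had it at 3.64%.

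The next families are to be read against the 10.99% of all genes that are in pairs and the 88.9% of all pairs with a member, and most of their shares of pairs with a member lay near the latter. Of genes of protein synthesis and turnover, 17 of 87 genes of the cytosolic ribosome were in pairs, with a member at 16 of 17 pairs, led by Med22/Rpl7a (25.2 and 19.0) and Mrpl49/Fau. For tRNA synthetases the count was 10 of 38 genes, with a member at all 9 pairs, led by Lyrm4/Fars2 (15.0 and 9.60) and S100pbp/Yars (14.4 and 8.39). For the proteasome it was 12 of 50 genes, with a member at 11 of 12 pairs, led by Mrpl32/Psma2 (19.0 and 9.14) and Ftsj3/Psmc5 (17.95 and 10.6). Chaperones had 31 of 95 genes in pairs and a member at 25 of 29, led by Dnajb4/Fubp1 and Tecr/Dnajb1. Zinc finger genes with Zfp names had 31 of 394 genes in pairs (7.87%) and a member at 24 of 29, led by Zfp654/Cggbp1 (29.5 and 15.4) and Zfp142/Bcs1l (18.3 and 10.1).

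Histone genes were mostly paired with each other. Of 83 histone genes, 27 were in pairs (32.5%, against 10.99% of all genes), and both genes were histones in 13 of 14 pairs. A member was found in both libraries at 11 of the 14 pairs, against 88.9% of all pairs. The strongest were Hist1h2bf/Hist1h2ad (11.8 and 4.44) and Hist2h2ac/Hist2h2be (10.96 and 4.47). The median best signals were 8.03 and 3.42, and their log2 ratio of replicate 1 to replicate 2 had a median of 1.27, with 9 of 11 pairs above the median of all pairs. The 2 other pairs were Hist1h2ae/Hist1h2bg (0.58) and Bola1/Hist2h2ab, where the partner is not a histone. The ratio of the latter (-0.20) compares different peaks, and the best peak of replicate 2 there is also that of Hist2h2ac/Hist2h2be. The letters of these promoters also stood apart from the list of all pairs, with CCAAT at 9 of 11, TATAAA at 5 of 11 and the GC box at 3 of 11, against 45.0%, 3.65% and 76.4% of all pairs. Histone genes are near-identical copies, so reads could be split among them and the values of single pairs are uncertain.

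Few genes of the spleen's own cell types were in divergent pairs, but the lists are short, and 10.99% of all protein-coding genes are in a pair and 51% have a peak called in both libraries. Of 25 erythroid genes, 0 were in a pair and 22 had a peak. Of 19 B cell genes, 0 were in a pair and 12 had a peak. Of 23 T cell genes, 1 was in a pair, Cd8b1, whose pair with Smyd1 had a peak in a larger list alone. Of the 22 T cell genes outside pairs, 4 had a peak. Of 1135 odorant receptor genes, 0 were in a pair and 1 had a peak. Of 44 collagen genes, 4 formed 2 pairs, and neither had a member.

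No member was found in either library at 136 pairs (11.04%). Of these, 24 had a peak in replicate 1 alone, 24 had one in a larger list alone, and 88 had none in any list. Their starts lay a median of 145 bases apart, against 106 for all pairs. The following examples were chosen after their values were seen. Pairs with no peak in any list included Abcg5/Abcg8, the sterol transporter of liver and intestine, Kirrel2/Nphs1, of which Nphs1 encodes nephrin of the kidney, Hspb2/Cryab, small heat shock proteins of muscle and lens, and Blcap/Nnat. The imprinted pair Peg3/Usp29 had a peak in replicate 1 alone. Another imprinted pair, Sgce/Peg10, and the collagen pair Col4a4/Col4a3 of the kidney basement membrane had one in a larger list alone, as did the GABA receptor pair Gabra4/Gabrb1.

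On the X chromosome, 22 of 31 pairs (71.0%) had a member in both libraries, against 88.9% of all pairs, the lowest share of the chromosomes with pairs. The median best signals there were 7.0 and 3.19. Males have a single X, and whether this bears on these values was not tested. Other promoter peaks of the X were not compared. The shares of chromosomes 6 (77.5% of 40 pairs) and 10 (79.6% of 54) were also low. Chromosome 12 had a member at all 46 of its pairs, and chromosome 8 at 69 of 71. The autosomes' median best signals ran from 8.70 to 14.0 in replicate 1 and from 5.50 to 7.99 in replicate 2, so the X lay below each of them in both.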

How the data were processed

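DNase-seq of spleen was deposited as separate files for each of the 2 libraries of 1 group, replicates 1 and 2 as numbered in the labels. Per the labels, alignments were to mm10. Per the file headers deposited with them, the authors derived peaks and per-base false discovery rates from filtered alignments, and footprints from both. The aligner and the peak and footprint callers were not given in the sources used here. Each deposited peak has 1 signal value, the authors' own, whose scale is not given. The deposited FDR values cover runs of bases at 0.05 or less. Deposited footprints have a score column that is 1 constant, so only their positions were used. Read depth is unknown, and the values carry no counting interval.

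Each library had 2 deposited peak lists, and the list with fewer bases was used (9.46 and 5.72 Mb), the larger as an alternative. Pairs came from GENCODE M21 starts of protein-coding genes on 21 chromosomes. The distance of a pair is that of its closest divergent starts. The places of named peaks and of the strongest member of a pair are given against these starts. A peak could be a member through other starts. A peak's distance to a start is measured from its nearer edge. Sequence was read from the mm10 reference (GRCm38). Motifs were exact matches on either strand, and a match was footprinted if a footprint overlapped it. The pair, peak and motif searches were tested on simulated data and returned every simulated pair, member and match.

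No test was made: the group has 2 libraries and no contrast, and genes, pairs and peaks are not independent replicates. Means ± SD are over the 2 libraries. Pairs are named by a rule. It takes the 10 strongest by mean best signal, the 5 highest and 5 lowest log2 ratios between the libraries, 22 known head-to-head pairs, and the 2 strongest pairs of each of 15 gene families. Some pairs that the rule names are not reported here. Other names are marked as chosen after their values were seen. The members, families, motifs and known pairs were chosen with earlier results of these data known. Alternatives were the larger lists, the stronger 50% of peaks, a reciprocal overlap of 50%, limits of 500 bases, other sets of starts and each library alone. Python 3.11.15, numpy 2.4.6, pandas 2.3.3, pysam 0.24.0, samtools 1.23.1 and matplotlib 3.10.9 were used.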

Additional observations from a re-analysis of the deposited data

How the results depend on the processing

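The share of divergent pairs with a member was 88.9% and stayed between 85.2% and 91.9% in every alternative. It was 90.6% with the larger lists, 85.6% with the stronger 50% of peaks, 86.5% with reciprocal overlap, 90.6% with starts at most 500 bases apart, 85.2% with peaks within 500 bases of each start, 90.2% with starts of protein-coding transcripts and 91.9% with gene record starts. With 1 library alone it was 88.96% to 90.8%.

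The log2 ratio of the median signal of members to that of other promoter peaks was 0.80 and stayed above 0 throughout. It was 1.18 with the larger lists, 0.33 with the stronger 50% of peaks, 0.67 with reciprocal overlap, 0.71 with gene record starts and 0.54 over peaks that overlap a start, an alternative chosen after seeing the data. With 1 library alone, where no overlap was asked, it was 0.80 to 1.41, the higher value in replicate 1. The ratio was lower where weak peaks were left out and higher where more of them were kept.

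Pairs with a single member made up 61.5%. The share was 56.0% with the larger lists, 73.7% with the stronger peaks, 65.6% with reciprocal overlap, 63.0% with starts at most 500 bases apart, 71.4% with peaks within 500 bases, 65.2% with gene record starts and 50.1% to 53.6% with 1 library alone. The excess of footprints per 100 bases in members, 0.130, was 0.206 with the larger lists, 0.0371 with the stronger peaks, 0.0962 with reciprocal overlap, 0.212 with peaks within 500 bases and 0.119 to 0.164 with 1 library alone. With gene record starts alone, members numbered 973 in each library, since 754 pairs remained. The difference in CpG per 100 bases, 0.167, was -0.167 with gene record starts and 0 to 0.667 with 1 library alone, so its direction is not settled. The mean width of members exceeded that of other promoter peaks by 5.43 bases, less than its spread of 7.67 between the libraries, and by 1.56 to 10.4 bases in the alternatives.

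Of the 39 alternatives of the 13 motif differences, 35 kept their sign. The exceptions were TATA in replicate 1 alone (-0.35 percentage points against 0.31) and all 3 alternatives of PU.1 (-0.15, -0.012 and -0.68 against 0.0072). The GC box difference, 1.83 points, was 6.13 in replicate 1 alone, and that of the E-box, 0.79, was 0.48 with the peak itself as window and 1.34 in replicate 2 alone. TATA, 0.31, was 0.17 with the peak itself, GATA, -0.61, was -0.97 in replicate 1 alone, and RUNX, -0.48, was -0.80 there and -0.30 with the peak itself. The ETS difference, 9.96 points, was 9.30 with the peak itself as window and 9.53 to 10.5 with 1 library alone. No paired analysis was possible because the series holds 1 group. Read depth is unknown, and a pair without a member is one where none was detectable in these libraries.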
